A study of Mus musculus with 10 samples.

Results

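The C-type lectin receptors of myeloid cells described here are Clec12a, Clec4a1, Clec4a2, Clec4a3, Clec4d, Clec4e, Clec4n, Clec7a, Clec5a and Clec10a, 10 of the 36009 genes in the deposited count table. They were taken by gene name, as receptors of the Dectin-1 and Dectin-2 clusters and related lectins of myeloid cells. They were chosen by name with the differences between responders and non-responders in these tumors already known. The values of these genes in that contrast are therefore given as a description, with no p. Calls among them are counted and are not read as evidence about them. RNA was sequenced from CT26 tumors, a mouse colorectal carcinoma line grown under the skin of wild-type female BALB/c mice. Part of each tumor was removed by surgery, and a hydrogel loaded with poly(I:C), a synthetic double-stranded RNA, was then applied to the residual tumor. The removed part gave the library, so all 10 tumors were untreated when sampled, and neither group differs in genotype or agent at that time. The comparison asks what set apart the 6 tumors of responders, mice whose residual tumor regressed completely, from the 4 tumors of non-responders, in which growth was not delayed. The labels give no age for the mice and no sequencing batch.

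C-type lectin receptors are membrane proteins of macrophages, monocytes, dendritic cells and neutrophils that bind sugars, lipids or material from dead cells. Some of them carry or recruit an activating motif and signal through the kinase SYK and the adaptor CARD9, while others carry an inhibitory motif and recruit the phosphatases SHP-1 and SHP-2. Most of their genes lie close together in the natural killer gene complex, in groups named after Dectin-1 (Clec7a) and Dectin-2 (Clec4n). In bulk tumor RNA, fewer cells of a type and less RNA per cell cannot be told apart.

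On GRCm38, Clec12a at chr6:129342691-129365303 and Clec7a at chr6:129461591-129472779 lay in the Dectin-1 group. Clec4a1, Clec4a3, Clec4a2, Clec4n, Clec4d and Clec4e followed each other in that order over 368.0 kb of the same chromosome, between 122921848 and 123289870. Clec5a at chr6:40574894-40585821 and Clec10a at chr11:70156197-70170834 lay outside both groups. The GENCODE annotation gives Clec7a the biotype polymorphic pseudogene, a class for genes that are intact in some individuals and not in others.

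Promoter sequence is shown for the 3 members whose levels kept every responder apart from every non-responder, and for Clec4e, whose level did not. RefSeq windows on GRCm38.p6, from 250 bases before to 50 bases after an annotated start, were matched for 8 of the 10 members. Capitals mark GAGGAA and its reverse complement TTCCTC, letters that the myeloid transcription factor PU.1 binds. The windows below are chr6:129349994-129350293 on the plus strand for Clec12a, chr6:122921598-122921897 on the plus strand for Clec4a1, chr6:122952394-122952693 on the plus strand for the second annotated start of Clec4a3, and chr6:123289822-123290121 on the minus strand for Clec4e.
Clec12a: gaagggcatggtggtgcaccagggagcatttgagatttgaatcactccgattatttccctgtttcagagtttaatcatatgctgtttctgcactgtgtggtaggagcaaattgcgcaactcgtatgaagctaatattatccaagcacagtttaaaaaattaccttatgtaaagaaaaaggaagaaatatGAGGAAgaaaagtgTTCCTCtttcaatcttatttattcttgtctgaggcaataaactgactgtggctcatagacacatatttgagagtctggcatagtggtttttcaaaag
Clec4a1: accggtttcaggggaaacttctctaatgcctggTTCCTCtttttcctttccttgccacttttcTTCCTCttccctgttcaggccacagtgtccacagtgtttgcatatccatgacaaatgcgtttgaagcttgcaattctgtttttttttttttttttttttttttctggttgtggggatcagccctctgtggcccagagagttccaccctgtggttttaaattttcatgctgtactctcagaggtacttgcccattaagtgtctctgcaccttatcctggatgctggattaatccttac
Clec4a3: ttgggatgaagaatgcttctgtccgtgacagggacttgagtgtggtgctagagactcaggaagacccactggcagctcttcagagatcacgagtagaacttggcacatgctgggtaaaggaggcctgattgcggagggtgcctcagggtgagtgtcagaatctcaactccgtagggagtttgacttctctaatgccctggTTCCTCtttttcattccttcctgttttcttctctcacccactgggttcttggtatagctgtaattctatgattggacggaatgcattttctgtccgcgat
Clec4e: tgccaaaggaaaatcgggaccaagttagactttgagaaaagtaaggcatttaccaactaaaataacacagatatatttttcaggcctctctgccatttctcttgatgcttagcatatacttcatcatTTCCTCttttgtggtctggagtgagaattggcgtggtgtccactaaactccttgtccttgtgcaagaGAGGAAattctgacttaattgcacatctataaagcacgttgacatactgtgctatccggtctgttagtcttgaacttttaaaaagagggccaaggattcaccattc

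GAGGAA was found on either strand in at least 1 window of 7 of the 8 members, against 31.3% of 27025 genes counted in the same way. The first annotated start of Clec4a3, with the window chr6:122952265-122952564, had none of these letters, and the window printed for this gene was picked because it has them. Clec4a2 had none in its window either. The windows of Clec4a2, which starts at 123122440, and of Clec12a lie inside the annotated genes and not at their 5′ ends. The letters TTGCNNAA, as C/EBP factors bind, were found for Clec12a and Clec4e, against 12.2% of genes, and the interferon-stimulated response element (ISRE) for Clec4d alone, against 3.99% of genes. A GAGGAA can share its last bases with an ISRE, so these searches are not independent. These are matches of letters, with no measurement of binding.

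The windows of Clec4a1 and Clec4a3 shared the stretch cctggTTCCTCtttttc, which starts 222 bases before the start of Clec4a1 and 55 bases before that of Clec4a3. Its 17 bases were the longest run common to any of the 43 pairs of windows from different members. The next longest had 12 bases and the median was 9.

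Total estimated counts ran from 23374649 to 38042544 per tumor, with a mean of 32609564 in responders and 26919622 in non-responders (exact two-sided permutation test over 210 splits, p = 0.0571). Without non-responder 4 the difference in depth had p = 0.0238 in the same exact permutation test, and without any other tumor p was between 0.0635 and 0.143. Across 16041 genes tested with edgeR's quasi-likelihood test, 756 were higher and 537 lower in responders at an adjusted p under 0.05, which is 4.71% of genes called higher. For 5.84% of genes, every responder lay above every non-responder. The epithelial genes Krt8, Krt18 and Epcam reached at most 14, 3 and 19 estimated counts in a tumor, so these markers of a carcinoma were nearly absent. Cdh1 (E-cadherin) was detected, at 4.15 ± 1.31 CPM in responders and 5.996 ± 1.04 CPM in non-responders. The leukocyte antigen Ptprc (CD45) was higher in responders, with 380 ± 63.1 against 251 ± 55.6 CPM (a gene's count scaled to its library's total after the trimmed mean of M-values, TMM) and an adjusted p of 0.0413.

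All 10 lectin genes passed the filter on low counts, and all 10 estimates were on the side of responders. Their median log2 fold change was 0.56, beside -0.0086 over all genes tested, of which 48.2% had an estimate on that side. Of the 10, 3 were called higher beside the 4.71% of all genes, and the same 3 had groups that did not overlap beside 5.84%. Since the members were selected with this contrast known, nothing is read from these counts. The groups did not overlap for Clec12a, Clec4a1 and, by a narrow margin, Clec4a3, and they overlapped for the other 7, of which Clec4n and Clec4d had estimates close to 0.

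**Figure D1:**
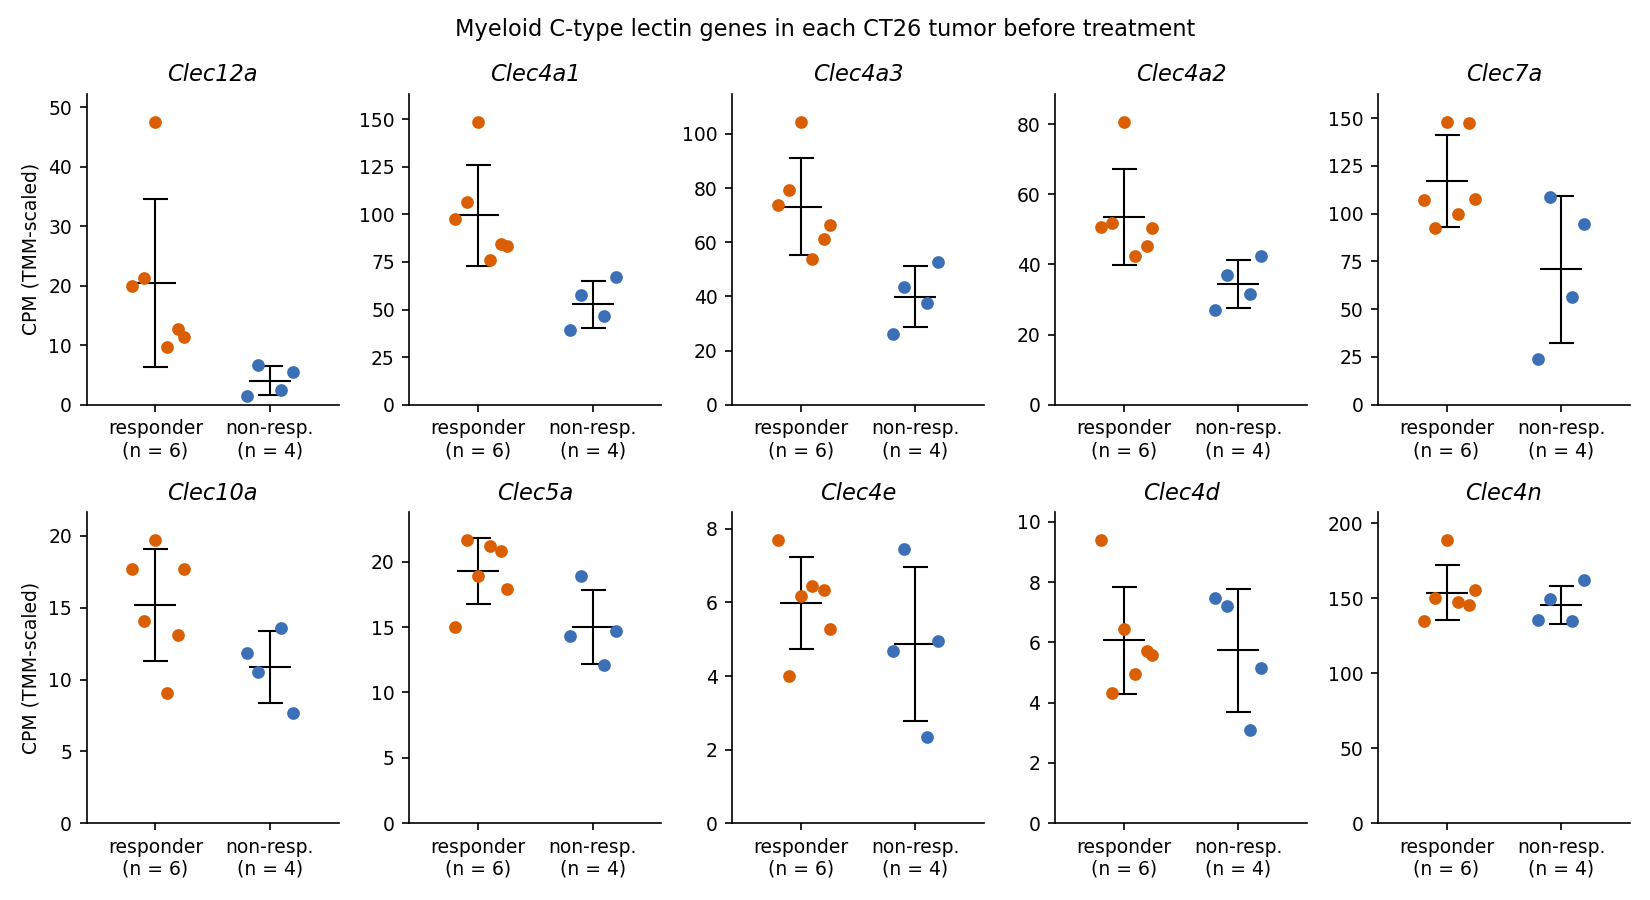
CPM of each lectin gene in each of the 10 CT26 tumors, with responders in orange and non-responders in blue, and the mean ± SD as black bars. Each panel has its own axis, which starts at 0. For Clec12a, Clec4a1 and Clec4a3 every responder lies above every non-responder, and responder 5 is the highest tumor for each of them.

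Clec12a encodes an inhibitory receptor that recognizes uric acid crystals and other signs of dead cells. It was at 9.77 CPM in the lowest responder, at a median of 16.3 and at 47.6 CPM in the highest. Non-responders 1 to 4 were at 1.45, 5.49, 6.63 and 2.53 CPM. The means were 20.4 ± 14.1 CPM (SD, n = 6) and 4.03 ± 2.43 CPM (SD, n = 4). The log2 fold change was 2.36 (SE 0.54). Responder 5 stood far above the other responders, and even the lowest responder was above the highest non-responder. Without responder 5 the log2 fold change was 1.91.

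The DCIR family (dendritic cell immunoreceptors) has an inhibitory member in Clec4a2, the mouse gene closest to human CLEC4A, while the products of Clec4a1 and Clec4a3 lack the inhibitory motif. Clec4a1 was at 75.9 CPM in the lowest responder, at a median of 91.1 and at 149 CPM in the highest, against 39.0, 67.1, 57.7 and 46.8 CPM in non-responders 1 to 4. Its log2 fold change was 0.92 (SE 0.20), and the groups did not overlap. Clec4a3 was at 53.8 CPM in the lowest responder, at a median of 70.2 and at 104.5 CPM in the highest, against 26.2, 52.8, 43.3 and 37.5 CPM in non-responders 1 to 4. The difference came to 0.87 (SE 0.21) on the log2 scale. Its lowest responder and its highest non-responder were only about 1 CPM apart, and the order of the non-responders was that of Clec4a1.

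For Clec4a2 the responders ran from 42.3 through a median of 50.5 to 80.6 CPM, and non-responders 1 to 4 were at 26.8, 42.5, 36.9 and 31.5 CPM. The log2 fold change was 0.64 (SE 0.18). Of the 6 responders, 5 lay above every non-responder, and responder 4 was just under non-responder 2. Responder 5 was again the highest tumor and non-responder 1 the lowest, as for Clec12a, Clec4a1 and Clec4a3.

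Among the activating receptors, Clec7a (Dectin-1), which binds fungal beta-glucans and carries its own activating motif, was at 92.6 CPM in the lowest responder, at a median of 107.5 and at 148 CPM in the highest. Non-responders 1 to 4 were at 23.7, 94.6, 109 and 56.1 CPM. The log2 fold change was 0.73 (SE 0.33), and 2 of 6 responders lay above every non-responder. The non-responders spread widely here, with 2 of them among the responders and non-responder 1 far below.

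Clec4n (Dectin-2), which binds fungal mannans and signals through the Fc receptor gamma chain, had the highest mean CPM of the 10 genes, although Clec7a was slightly higher in responder 2. Responders ran from 135.03 through a median of 149 to 189 CPM, and non-responders 1 to 4 were at 135.4, 162, 149 and 135.01 CPM. The log2 fold change was 0.08 (SE 0.09), and the groups overlapped over nearly their whole range. Only responder 5 lay above every non-responder.

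Clec4e (Mincle), a receptor for mycobacterial glycolipid and for a nuclear protein released by dying cells, was at 3.99 to 7.69 CPM in responders, with a median of 6.26. Non-responders 1 to 4 were at 4.68, 4.96, 7.46 and 2.35 CPM, and the log2 fold change was 0.31 (SE 0.27). Its neighbor and partner Clec4d (MCL) was at 4.33 to 9.39 CPM in responders, with a median of 5.65, and at 7.47, 5.15, 7.20 and 3.11 CPM in non-responders 1 to 4. The groups overlapped for both, and the estimate for Clec4d, 0.09 (SE 0.26), turned to -0.07 without responder 1 and to -0.12 without non-responder 4. In both genes responder 1 was the highest and non-responder 4 the lowest tumor.

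Clec5a (MDL-1), which signals through the adaptors DAP12 and DAP10, ran from 15.01 through a median of 19.9 to 21.6 CPM in responders. Non-responders 1 to 4 were at 14.3, 14.7, 18.9 and 12.1 CPM. The log2 fold change was 0.36 (SE 0.13), and 3 of 6 responders lay above every non-responder. Only non-responder 3 reached the range of the responders.

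Clec10a (MGL1), a galactose-type lectin of macrophages and dendritic cells, ran from 9.04 through a median of 15.9 to 19.7 CPM in responders. Non-responders 1 to 4 were at 11.8, 7.65, 10.5 and 13.6 CPM, and the log2 fold change was 0.48 (SE 0.21). Here 4 of 6 responders lay above every non-responder, while responder 4 was lower than 3 of the 4 non-responders. Of its 31-base stretches, 14.9% also occur in another gene, and 13.7% occur in its near copy Mgl2. Mgl2 went the other way, with 46.7 ± 15.5 against 71.8 ± 10.3 CPM, a log2 fold change of -0.62 (SE 0.21) and an adjusted p of 0.0834. The split of reads between these neighbors is uncertain. For Clec4a2 the share was 10.9%, of which 4.96% with Clec4a4, and for the other 8 members it was at most 2.19%.

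Per kilobase of the longest annotated transcript, and as a mean over all 10 tumors, Clec4n was the highest at 107 ± 11.5 CPM per kb (SD). Clec4a1 at 51.8 ± 20.6, Clec4a3 at 46.1 ± 17.4 and Clec7a at 43.3 ± 16.4 CPM per kb followed, with ranges that overlapped each other. The lowest tumor for Clec4n, at 96.2 CPM per kb, was above the highest for Clec4a1, at 95.4. Clec4a2 stood at 18.5 ± 5.95 CPM per kb, with a range that overlapped that of Clec7a. Clec10a (5.78 ± 1.69), Clec5a (4.68 ± 0.889), Clec4d (4.48 ± 1.34) and Clec12a (4.29 ± 4.20) were not separable by their ranges. Clec4e had the lowest mean, 1.15 ± 0.339 CPM per kb, but its range lay within that of Clec12a. In non-responders alone, Clec12a was at 1.25 ± 0.753 and Clec4e at 1.01 ± 0.435 CPM per kb, so the place of Clec12a in this order depended on the group. With the merged exons of each gene as the length, the order was the same.

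The members did not vary as a unit. To set the response contrast aside, each gene's log2 CPM was centered on the mean of its response group, and correlations were taken over the 10 tumors as a description. Over the 45 pairs of members the median r was 0.21, and 6 pairs had an r below 0. The 6 pairs over 0.9 were those among Clec12a, Clec4a1, Clec4a2 and Clec4a3. Clec4e and Clec4d, which adjoin each other, had an r of 0.84 with each other and of at most 0.38 with any other member. Clec4n was closest to Clec4a2, with an r of 0.88, and Clec10a and Clec5a had the lowest r of any pair, -0.53. These tumors share the spread of libraries and of immune cell content, and 10 points leave each r imprecise.

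**Figure D2:**
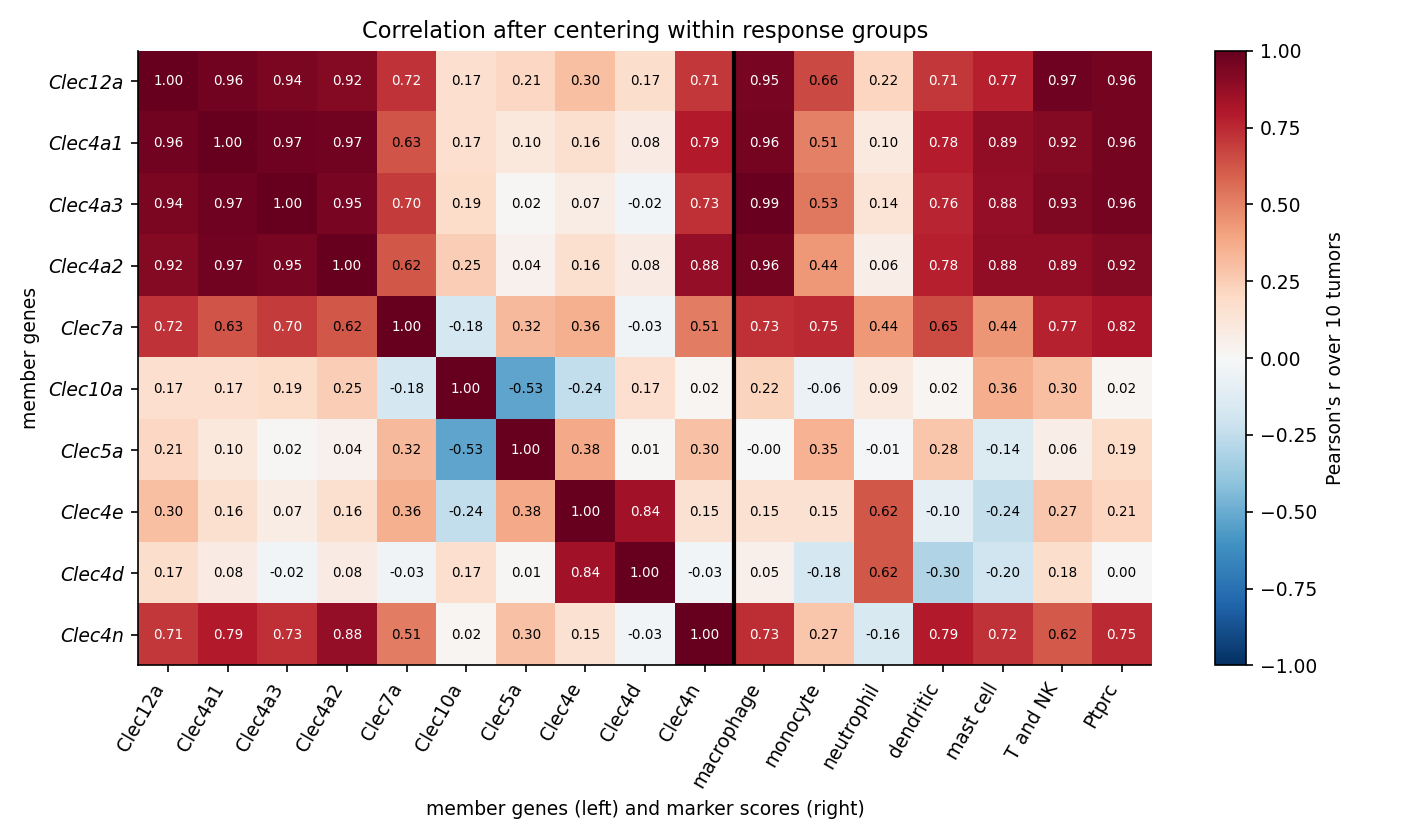
Pearson's r of log2 CPM between lectin genes (left of the black line) and of each lectin gene with scores of cell type markers (right of the line), over 10 tumors after centering on the mean of each response group. Red is positive and blue negative. The block of Clec12a, Clec4a1, Clec4a3 and Clec4a2 has every r over 0.9, while Clec4e and Clec4d pair with each other at 0.84.

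Macrophage markers moved with the response groups as well. Of 8 macrophage genes, 6 were called higher in responders, and all 8 estimates were on that side. The summed level of the 8 was 2635 to 4000.2 CPM in responders against 1622 to 2399 CPM in non-responders. Adgre1, which encodes F4/80, rose with a log2 fold change of 0.87 (SE 0.19, adjusted p = 0.031). Csf1r, the receptor for the macrophage growth factor CSF1, had an estimate of 0.24 (SE 0.10, adjusted p = 0.13). The mean log2 CPM of the 8 genes, called the macrophage score here, separated the groups fully, with 7.85 to 8.43 in responders and 7.16 to 7.75 in non-responders.

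Markers of other cells moved too. Of 5 inflammatory monocyte genes tested, 4 had estimates on the side of responders and Ly6c2 alone was called higher. Ly6c2 was at 25.4 ± 4.37 against 14.0 ± 4.92 CPM (adjusted p = 0.0401 by edgeR). The summed list was at 247 to 308 CPM in responders against 210.1 to 266 CPM. The sum over 10 T and NK cell genes was 71.6 to 246 against 28.4 to 81.6 CPM with 3 called higher, and over 7 mast cell genes it was 51.1 to 179 against 27.4 to 59.1 CPM with 2 called higher. For 8 dendritic cell genes the sum was 104 to 141 against 95.04 to 114 CPM with 2 called higher, and for 5 skeletal muscle genes it was 348 to 1122.5 against 308 to 402 CPM with 2 called higher. Neutrophil genes gave 76.0 to 156 against 60.4 to 127 CPM, and 1 of 6 tested had an estimate on the side of responders. Ly6g, which defines neutrophils, reached at most 1 estimated count. For 4 adipocyte genes tested, all 4 estimates were on that side, and the summed list was at 15.6 to 52.1 against 8.54 to 19.2 CPM. Fibroblast genes overlapped widely, at 3384 to 3948 against 2866 to 4209.6 CPM.

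Within response groups, members differed in how closely they followed the macrophage score. Each of the 10 members was set against the macrophage and the neutrophil score. The centered correlation was tested by an exact two-sided permutation of tumors within groups, over 17280 orders, with adjustment over the 20 relations. Correlations with other marker scores were also computed, and the adjustment does not cover them. Clec4a3 had an r of 0.989 (adjusted p = 0.00154 by this exact permutation test), and r was 0.984 in the 6 responders alone. Clec4a1 and Clec4a2 gave r of 0.959 and 0.956, both with the same adjusted p as Clec4a3. For Clec12a r was 0.950 (adjusted p = 0.00434 by the exact permutation test), and its level rose by 3.81 log2 units per unit of the score, against 1.64 for Clec4a3, 1.49 for Clec4a1 and 1.33 for Clec4a2. Spearman's rho, taken on ranks within groups, was 0.867 for Clec12a (adjusted p = 0.0388, exact permutation), 0.911 for Clec4a1 (0.0239), 0.956 for Clec4a2 and 0.956 for Clec4a3 (both 0.0104).

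Without non-responder 1 and responder 5, the tumors farthest out on the score, these 4 members still had r between 0.843 and 0.964. Clec4n and Clec7a did not pass, with r of 0.735 and 0.730 and an adjusted p of 0.0833 each (exact permutation). Both rested on the same tumors, since without non-responder 1 and responder 5 their r was 0.351 and 0.260. Clec10a (0.223), Clec4e (0.154), Clec4d (0.049) and Clec5a (-0.0034) had lower r, each with an adjusted p of 0.994 (exact permutation). In the 6 responders alone r was 0.812 for Clec10a, and 0.359, -0.022 and -0.356 for Clec4d, Clec4e and Clec5a. With the neutrophil score, Clec4e had an r of 0.625 (adjusted p = 0.0994) and Clec4d of 0.624 (adjusted p = 0.138), so neither passed the exact permutation test. That score averages 9 genes, among them Ly6g, Ngp and Camp, which reached at most 1, 13 and 5 estimated counts. These add noise near the floor to the score. The macrophage score itself had a centered r of 0.952 with the T and NK cell score and of 0.952 with Ptprc. For Clec12a and the DCIR genes, a relation to macrophage RNA therefore cannot be told apart from a relation to RNA of other leukocytes. Cell number and RNA per cell cannot be told apart here either. Some members had a higher centered r with other scores, which were not tested. It was 0.970 for Clec12a with the T and NK score, 0.818 for Clec7a with Ptprc and 0.792 for Clec4n with the dendritic score. Clec4a1, Clec4a2 and Clec4a3 had their highest r with the macrophage score.

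**Figure D3:**
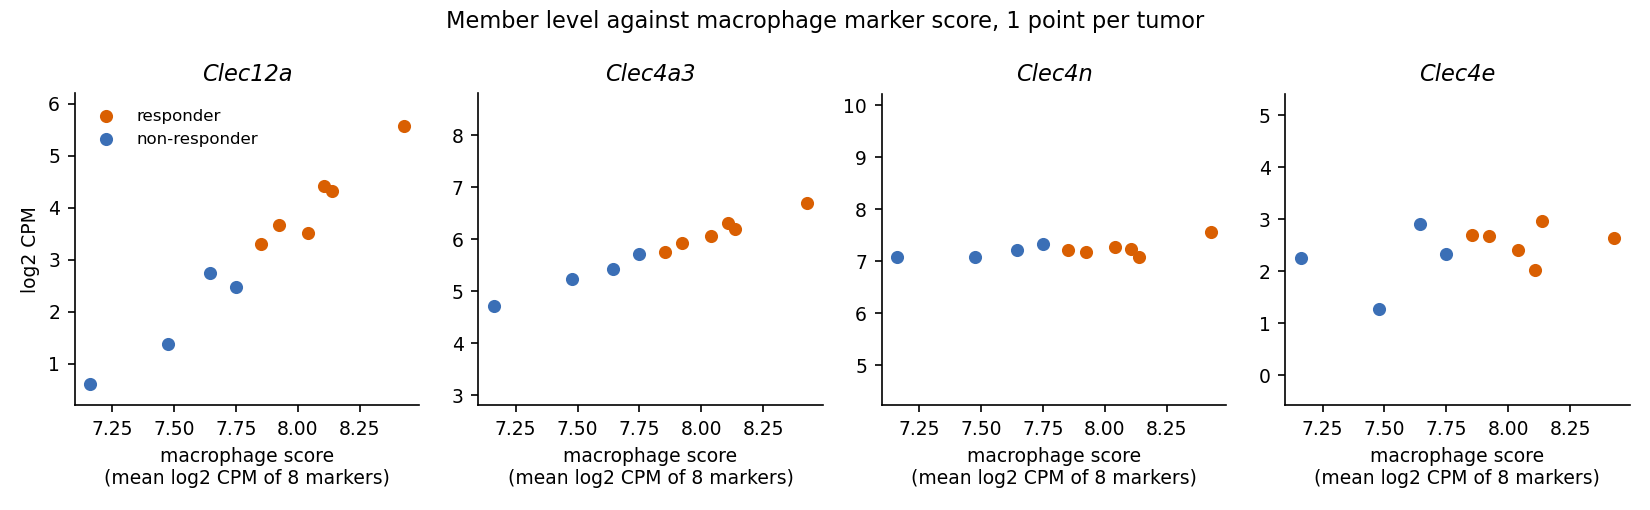
log2 CPM of Clec12a, Clec4a3, Clec4n and Clec4e (vertical axes, each spanning the same number of log2 units) against the macrophage score, the mean log2 CPM of 8 markers, with 1 point per tumor. Clec12a climbs steepest, Clec4a3 lies close to a line through both groups, Clec4n is nearly flat and Clec4e shows no order. All responders lie to the right of all non-responders.

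Set against the macrophage score of its own tumor, Clec4n turned to the side of non-responders. The score was itself higher in responders, at a mean of 8.08 against 7.51, so a gene with little difference falls on this scale. The log2 CPM of Clec4n minus the score was -0.82 ± 0.14 in responders and -0.33 ± 0.17 in non-responders. All 6 responders lay below the lowest non-responder. Clec12a stayed higher on this scale, at -3.95 ± 0.64 against -5.71 ± 0.76, in 6 of 6 responders, and Clec4a1 did so by a smaller amount, at -1.48 ± 0.17 against -1.82 ± 0.11. The groups of the other 7 members overlapped on this scale. The subtraction takes a slope of 1 for every gene. Within groups the slopes on the score were 0.49 for Clec4n, 1.49 for Clec4a1 and 3.81 for Clec12a. Where each of them falls on this scale depends on that choice, and the share of all genes kept apart on it was not counted.

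With the macrophage score as a covariate in the edgeR model, no slope had to be taken, and the estimates for Clec12a, Clec4a1 and Clec4a3 shrank. For Clec12a the log2 fold change was 0.11 (SE 0.28), for Clec4a1 0.05 and for Clec4a3 -0.056. Clec4a2, Clec7a and Clec4n were at -0.15, -0.21 and -0.21. That of Clec4n was farther from 0 than the 0.08 without the covariate. Clec10a, Clec4e and Clec4d were at 0.21, 0.12 and 0.05. Clec5a was at 0.37 with the covariate and at 0.36 without it. Because the score separates the groups, response and the macrophage score cannot be told apart in these 10 tumors. Ptprc and the monocyte, dendritic cell, muscle and adipocyte scores were also tried as the covariate, 1 at a time. With any of the 6, no member was called and no gene in the whole table was, with 845 to 2251 genes at an unadjusted p under 0.05.

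**Figure D4:**
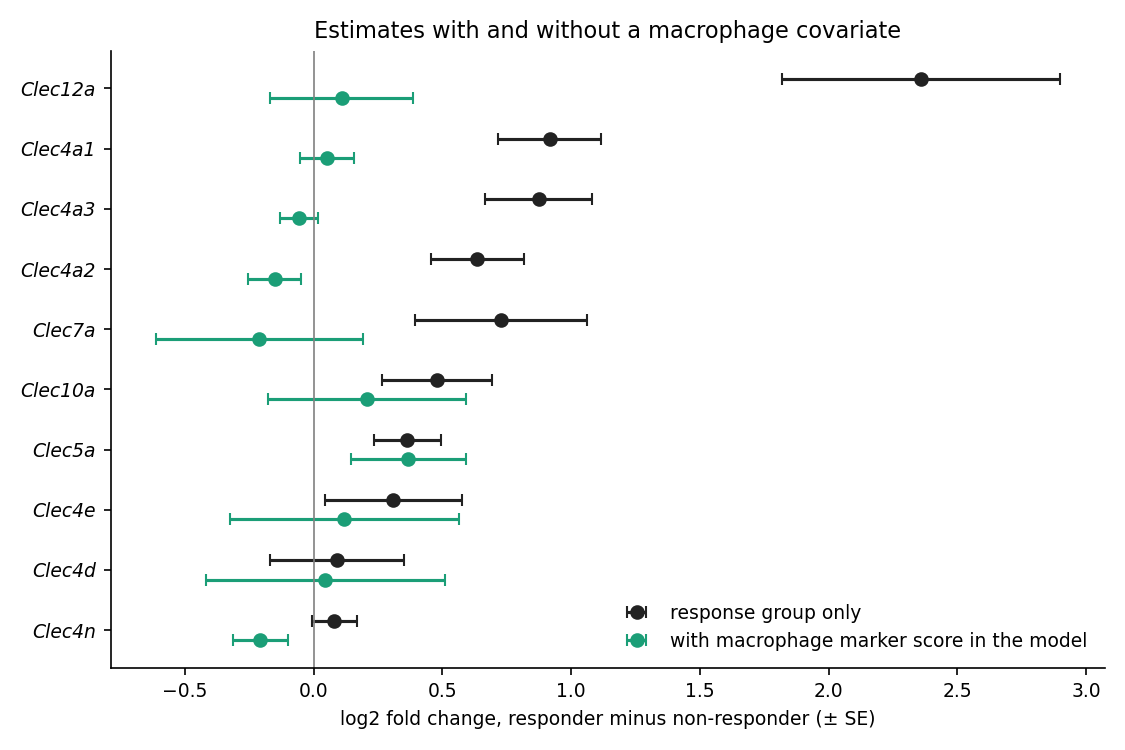
Log2 fold change (responder minus non-responder) of each lectin gene with its SE, from the model with response alone (black) and with the macrophage score added (green). Clec12a moves from 2.36 to 0.11, Clec4a3 crosses to -0.056, and Clec5a stays at 0.36 and 0.37.

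The calls depended on single tumors, among members and over all genes. The count of 3 became 1 without responder 1 and 2 without responder 5, and 0 without responder 2, responder 3, non-responder 1, non-responder 3 or non-responder 4. It was 5 without responder 4, 4 without non-responder 2 and 3 without responder 6. Over all genes, the 1293 calls fell to 553 without responder 1, 412 without responder 5 and 244 without responder 2. They fell to 17 without responder 3, 16 without non-responder 1, 366 without non-responder 3 and 735 without responder 6. They rose to 1619 without responder 4 and 1897 without non-responder 2. The counts for other lists given below come from these same fits. Without non-responder 4, no gene in the whole table passed the adjusted threshold, although 4106 had an unadjusted p under 0.05. Over these 10 fits the log2 fold change stayed between 1.91 and 2.69 for Clec12a, between 0.77 and 1.06 for Clec4a1 and between 0.72 and 1.04 for Clec4a3.

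Genes that adjoin the members on the chromosome did not all go with them. Within the Dectin-2 cluster and 100 kb on either side, 13 of 18 genes in the table were tested. C3ar1, the receptor for the complement fragment C3a, had a log2 fold change of 0.59 (SE 0.15, adjusted p = 0.0413), while the adjoining Necap1 (-0.05, adjusted p = 0.612) and Foxj2 (0.02, adjusted p = 0.856) had estimates near 0. Of the 12 genes in and near the Dectin-1 cluster, 8 were tested. Cd69, a lectin of activated lymphocytes, was higher with 0.98 (SE 0.25, adjusted p = 0.0419), and Gabarapl1 on the other side was at -0.14 (adjusted p = 0.132). Among the members in the Dectin-2 cluster, the estimates were larger at the Clec4a1 end than at the Clec4n, Clec4d and Clec4e end. The largest estimate in the cluster was that of Clec4b1, not a member, at 1.20 (SE 0.41). It lies between Clec4a3 and Clec4a2 and not at either end.

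**Figure D5:**
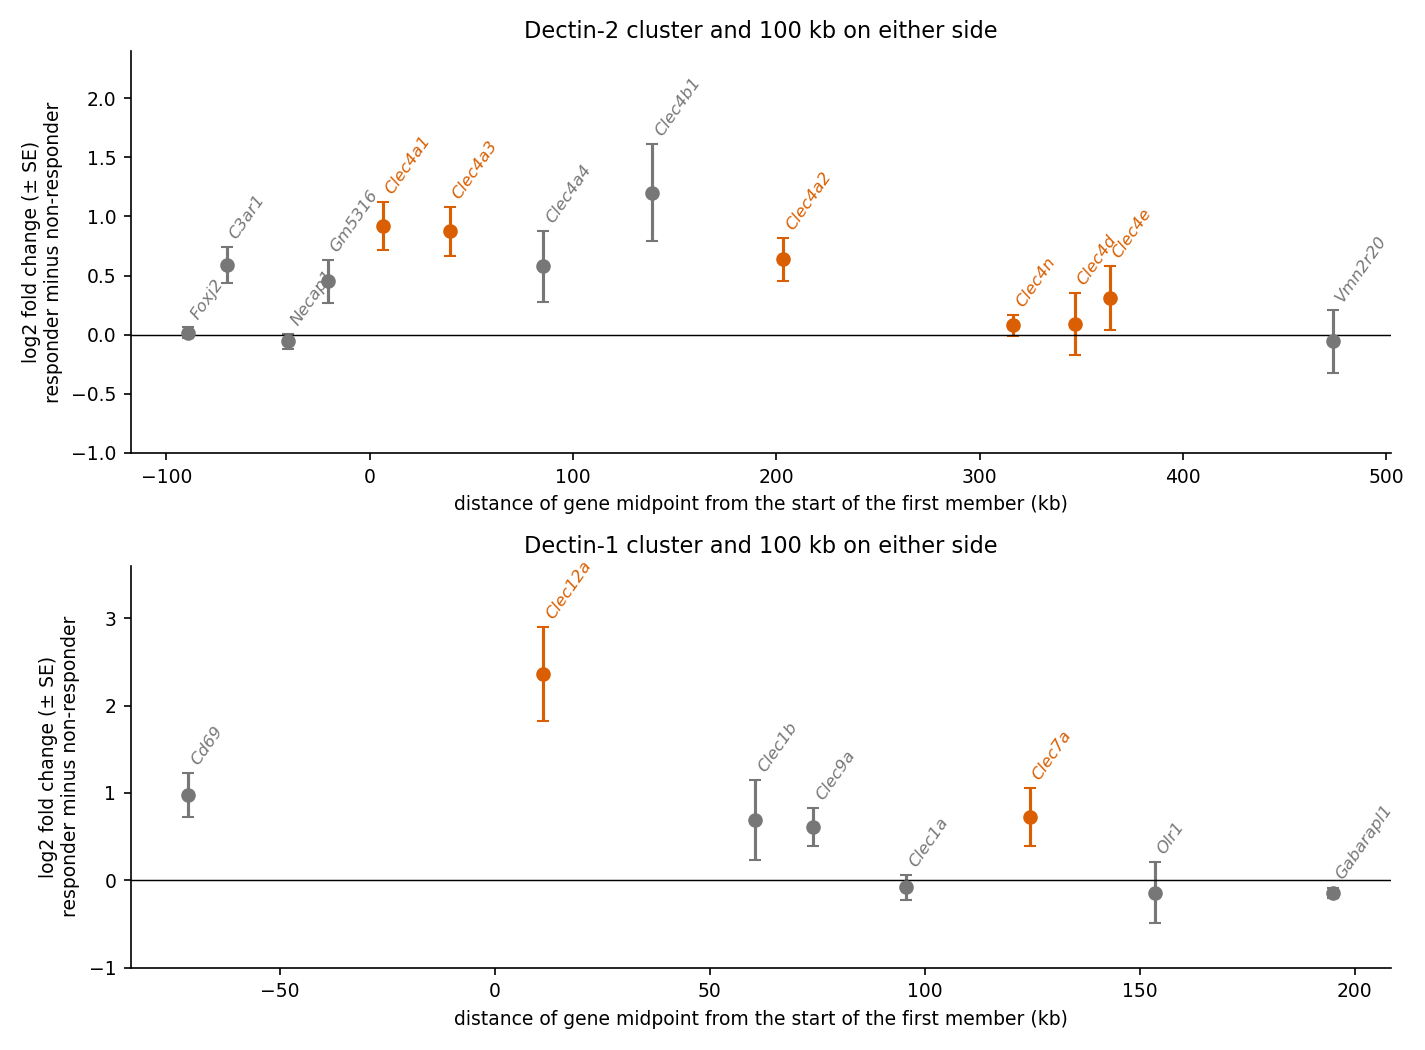
Log2 fold change (responder minus non-responder, with SE) of each tested gene against the distance of its midpoint from the start of the first member, for the Dectin-2 cluster (top) and the Dectin-1 cluster (bottom), members in orange and other genes in gray. Clec4a1 and Clec4a3 lie at 0.92 and 0.87, and Clec4n, Clec4d and Clec4e, at the other end, between 0.08 and 0.31.

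Of 9 other lectin genes listed with these clusters, 7 were tested, and by edgeR 0 passed in either direction, with 3 at an unadjusted p under 0.05. Clec2d, counted in this list, lies beyond the 100 kb windows used above. DESeq2 called 2 of them and limma-voom 0, and edgeR called 2 without non-responder 2. The smallest p belonged to Clec4b1, a DCAR gene, with a log2 fold change of 1.20 (SE 0.41, adjusted p = 0.0837), and to Clec9a, a receptor for dead cells on cross-presenting dendritic cells, at 0.61 (SE 0.22, adjusted p = 0.0913). The median log2 fold change of the 7 was 0.58.

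Among 35 C-type lectin genes outside the clusters, 27 were tested, 5 were higher and 2 lower, with a median of 0.05. Cd302 rose by 0.72 on the log2 scale (SE 0.13, adjusted p = 0.0243) and Cd93, a lectin of endothelium and myeloid cells, by 0.33 (SE 0.07, adjusted p = 0.0263). Thbd, which encodes thrombomodulin, fell by 0.49 (adjusted p = 0.0207) and Reg3g, an antibacterial lectin of epithelium, fell by 1.58 (adjusted p = 0.0331). The other 3 called higher, named after their values were seen, were Ly75 (0.32), Cd69 (0.98) and Colec12 (0.29). The count of 7 fell to 0 without responder 3, non-responder 1 or non-responder 4, to 3 without responder 1, responder 5 or non-responder 3, and to 4 without responder 2 or responder 6.

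In the activating pathway below these receptors, 10 of 20 genes were called higher and 1 lower, with a median log2 fold change of 0.44. Plcg2, the phospholipase that SYK activates, rose by 0.40 on the log2 scale (SE 0.08, adjusted p = 0.0243). Tyrobp, which encodes DAP12, rose by 0.54 (SE 0.12, adjusted p = 0.0311), and Pik3ap1, the PI3K adaptor BCAP, by 0.92 (SE 0.21, adjusted p = 0.033). Src was the gene called lower, by 0.20 (adjusted p = 0.0445). Of the pathway's core, named after its values were seen, Fcer1g (0.71, adjusted p = 0.0372) and Syk (0.51, adjusted p = 0.0451) passed, and Malt1 (0.34, adjusted p = 0.0648), Card9 (0.26, adjusted p = 0.202) and Bcl10 (-0.07, adjusted p = 0.437) did not. Differences between these genes were not tested.

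The 11 calls of the activating list became 0 without responder 3, non-responder 1 or non-responder 4. They were 2 without responder 2, 3 without responder 1, responder 5 or non-responder 3, and 5 without responder 6. With the macrophage score as a covariate 0 were called and 1 had an unadjusted p under 0.05.

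In the inhibitory pathway 3 of 9 genes were called higher and 0 lower, with a median of 0.33. These were Dok3 (log2 fold change 0.67, SE 0.12, adjusted p = 0.0232), Inpp5d, which encodes the lipid phosphatase SHIP1 (0.38, SE 0.10, adjusted p = 0.0401), and Ptpn6, which encodes SHP-1 (0.54, SE 0.14, adjusted p = 0.0408). Ptpn11, which encodes the broadly expressed SHP-2, had an estimate of -0.07 (adjusted p = 0.284). The count was 0 without responder 3, non-responder 1 or non-responder 4, 1 without responder 1, responder 2, responder 5 or non-responder 3, 2 without responder 6 and 5 without responder 4. Macrophage and leukocyte genes moved with this list and with the activating list, as given above, and neither list could be told apart from those genes.

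Of 24 cytokine, chemokine and early response genes that SYK and CARD9 signaling is known to induce, 22 were tested and 0 passed by edgeR, with 5 at an unadjusted p under 0.05. DESeq2 called 4 and limma-voom 0, and edgeR called 3 without non-responder 2 and 1 without responder 4. The smallest p belonged to Ccl3, a chemokine for monocytes and T cells, with a log2 fold change of 0.71 (SE 0.21, adjusted p = 0.0607), and to Nfkbiz, an NF-kappaB cofactor, at 0.34 (SE 0.10, adjusted p = 0.0619). The median over the list was 0.21.

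Outside these lists, the genes that were most like the members after centering within groups were Acvrl1 (r = 0.977), Il21r (0.976), Psd4 (0.970), Sytl2 (0.968) and Pilra (0.963), taken against the mean z-score of the members over 10 tumors among genes that average at least 1 CPM. Sytl2 was at 6.04 ± 1.96 CPM in responders and 2.51 ± 0.983 CPM in non-responders, and Pilra, an inhibitory receptor of myeloid cells, at 51.4 ± 10.5 against 33.7 ± 7.10 CPM. The members themselves had a median r of 0.68 with the mean of the other members, from 0.0024 for Clec10a to 0.930 for Clec12a. Clec4a1, Clec4a2 and Clec4a3 had 0.87, 0.88 and 0.81, while Clec5a and Clec4d had 0.13 and 0.21. The outside genes are thus alike to a mean that follows Clec12a and the DCIR genes far more closely than Clec10a, Clec5a or Clec4d. The outside genes are the highest of all those searched, so their r and the r of the members are not on a like footing.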

How the data were processed

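PolyA RNA from the resected part of each tumor was sequenced as paired-end reads. The authors checked read quality in FastQC, ran the pseudoaligner Kallisto on GRCm38 and used tximport to go from transcripts to genes. The annotation release, the tximport scaling and the strand setting are not given in the sources used here. The deposited values are estimated counts per gene, not scaled to depth. They were rounded to whole numbers. Of the 36009 rows, 9633 had no gene name and kept their identifier.

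Groups were taken from the response in the labels, and tumors were numbered in accession order. Counts were analyzed in R 4.3.3 with edgeR 4.0.16, using filterByExpr (minimum count 10, minimum total 15), TMM and the two-sided quasi-likelihood test, with Benjamini-Hochberg adjustment over 16041 genes and a threshold of 0.05. The step was tested on simulated data. The SE was taken from the F statistic, as the estimate over its root. log2 CPM used a prior count of 2. DESeq2 1.42.0 and limma-voom (limma 3.58.1), other normalizations, filters and covariates, thinning and leaving out tumors were alternatives. The monocyte and dendritic covariates, the 100 kb neighbor window, the motif search, the shared promoter stretches and the 20 correlation tests were added after the data were seen. Shared sequence was counted as stretches of 31 bases on GENCODE transcripts.

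The members and lists were chosen with earlier results of these data known. Beside the members, the text names up to 4 called genes per pathway list with the smallest p, or the 2 with the smallest p where none was called, the 5 genes most like the members, and Ptprc, Adgre1, Csf1r and Ly6c2. A gene of the activating list that this rule names is not reported here. Other genes named were chosen after their values were seen.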

Additional observations from a re-analysis of the deposited data

Results flagged for a closer look

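Responder 5 lay apart from the other responders for Clec12a, at 47.6 CPM against 21.2 CPM in the next highest tumor, and for Clec4a2, at 80.6 CPM against 51.9 CPM. In both genes the gap to the next tumor, divided by the range of the group (0.697 and 0.750), was above Dixon's 95% critical value for 6 samples. These were 2 of 38 groups of values examined, and chance gives about 1 in 20. The same tumor had the highest macrophage score, 8.43. Without it the log2 fold change was 1.91 for Clec12a and 0.48 for Clec4a2. What sets this tumor apart was not tested.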

How the results depend on the processing

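No paired analysis was possible because the tumor numbers follow accession order and the labels give no number that the groups share. The DESeq2 test called 2602 genes in all, 5 members, 2 other genes of the Dectin clusters and 4 target genes, against 1293, 3, 0 and 0 with edgeR. The limma-voom test called 2 members, Clec4a1 and Clec4a3, and not Clec12a. With the macrophage, Ptprc, muscle, adipocyte, monocyte or dendritic covariate, 0 genes were called in all, and so 0 members, 0 other C-type lectins, 0 genes of the activating pathway and 0 of the inhibitory pathway. At an unadjusted p under 0.05 there were 1039, 845, 1051, 1744, 2251 and 1317 genes in these 6 fits. Each covariate had a higher mean in responders, and the cause was not tested.

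Of 230 recomputed log2 fold changes of members, 177 kept direction and call, 36 kept direction and lost the call, 5 gained a call and 12 changed sign. Only Clec12a, Clec4a1 and Clec4a3 had a call to lose, so all 36 belong to them, and the 177 include the members never called in the main fit. Over the 10 fits that left out 1 tumor, Clec12a kept its call in 4, Clec4a1 in 5 and Clec4a3 in 3. Calls of members, in these and the other fits, are on the contrast with which they were chosen. Nothing is read from them. The estimate of Clec4n turned to -0.21 (macrophage), -0.18 (Ptprc), -0.11 (muscle), -0.060 (adipocyte) and -0.12 (dendritic). Clec4a2 turned to -0.15 (macrophage) and -0.031 (Ptprc), Clec7a to -0.21 (macrophage) and -0.26 (Ptprc), and Clec4a3 to -0.056 (macrophage). Clec4d turned to -0.07 without responder 1 and -0.12 without non-responder 4, within a range up to 0.25.

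Leaving out 1 tumor at a time gave 0 to 1897 genes called in all, 0 to 5 members, 0 to 2 other genes of the Dectin clusters, 0 to 7 other C-type lectins, 0 to 13 genes of the activating pathway, 0 to 5 of the inhibitory pathway and 0 to 3 target genes. The difference in depth ran from 4508284 to 7712220 counts, and the median r of members with the other members from 0.62 to 0.71. Clec4e and Clec4d rest on 78.0001 to 282 estimated counts per tumor, which limits their precision.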
